A study of Mus musculus with 30 samples.

Results

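The genes described here are 10 members of 4 families that cells switch on under stress: *Gadd45a*, *Gadd45b* and *Gadd45g*, *Btg1*, *Btg2* and *Btg3*, the Polo-like kinase genes *Plk2* and *Plk3*, and the sestrin genes *Sesn1* and *Sesn2*. They were chosen by name, with earlier results of these data known. Of the 10, 9 could be measured among the 22139 transcript clusters tested, since no cluster of the platform table used here was named *Btg3*. Kidney RNA came from 30 male C57BL/6 mice of 9 to 11 weeks, in 6 groups of 5. *Trp53(+/+)* mice had both copies of *Trp53*, the gene of the transcription factor p53, while *Trp53(+/-)* mice had 1 copy and *Trp53(-/-)* mice 0 copies, a neomycin cassette standing in place of part of the gene in every cell of the body. In each genotype, 5 mice received 3.5 mg/kg bw aristolochic acid I (AAI), a plant nephrotoxin that forms DNA adducts, by daily injection for 6 days, and 5 received water. Kidneys were taken 24 h after the last dose, so later and earlier responses were not sampled. The study asked which genes AAI changes in these kidneys and which of them respond differently with *Trp53* genotype. *Trp53* expression was not analysed here, so the labels were not checked on the deleted gene.

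The members act at different points of the damage response. GADD45 proteins are small stress sensors that bind p21, PCNA, the CDK1 kinase and the upstream p38 and JNK kinase MEKK4, and they slow the cell cycle or feed stress kinase signalling. BTG proteins are antiproliferative adaptors that bring the CCR4-NOT deadenylase to messenger RNA and shorten poly(A) tails. PLK2 and PLK3 are kinases of centriole duplication and of the stress response, unlike the mitotic kinase PLK1. Sestrins restrain the growth kinase complex mTORC1 when amino acids are scarce. *Gadd45a*, *Btg2*, *Plk2*, *Sesn1* and *Sesn2* are textbook p53 targets, but most of these genes also answer to p53-independent signals such as serum, NF-kB, ATF4 and MAP kinase pathways.

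Values are log2 signals on which a difference of 1 is a 2-fold change, and every change is AAI minus water of the same genotype. A gene was called risen or fallen at an adjusted p under 0.05 in limma, with p-values adjusted over all clusters. The RNA came from whole pieces of kidney, so fewer cells of a type and less RNA per cell cannot be told apart. The array medians lay between 5.88 and 5.99. cDNA was made in batches of 14 and 16 samples: batch 1 held all *Trp53(+/+)* water, all *Trp53(+/-)* AAI and 4 *Trp53(+/+)* AAI kidneys, and batch 2 the rest. For the *Trp53(+/-)* response this means that AAI and batch cannot be told apart, whereas all *Trp53(-/-)* kidneys shared a batch. Which *Trp53(+/+)* AAI kidney was in batch 2 is not labelled.

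AAI raised most of these genes, with and without p53. In *Trp53(+/+)* kidneys 7 of the 9 measured members rose and 0 fell, against 15.2% and 12.0% of all clusters. In *Trp53(-/-)* kidneys 6 rose and 0 fell, against 15.5% and 10.9%. In *Trp53(+/-)* kidneys 4 rose and 0 fell, against 3.53% and 3.81%. The median log2 change of the 9 members was 0.63 in *Trp53(+/+)*, 0.49 in *Trp53(+/-)* and 0.62 in *Trp53(-/-)* mice, while that of all clusters was -0.03, 0 and -0.01. *Btg2* and *Plk2* rose at least 2-fold in each genotype, as did 3.37%, 0.700% and 3.33% of all clusters in the same order. Every AAI array lay above every water array for 5 members in *Trp53(+/+)*, 3 in *Trp53(+/-)* and 6 in *Trp53(-/-)* mice, against 9.71%, 4.09% and 10.5% of all clusters.

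**Figure D1:**
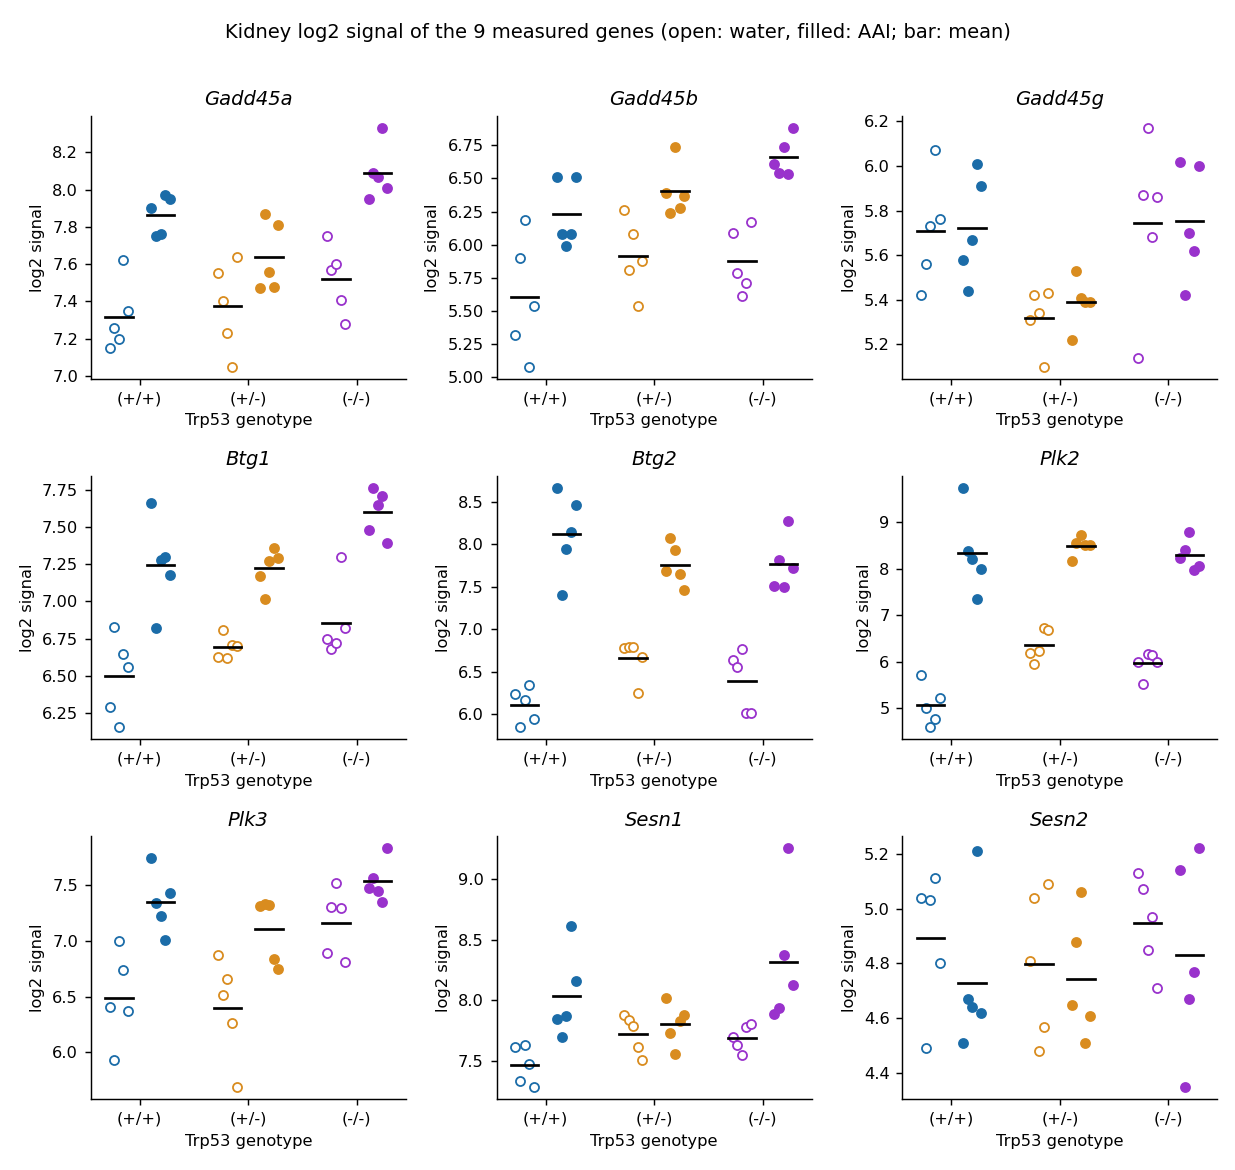
The log2 signal of each measured gene (y axis, own scale per panel) in the 5 water kidneys (open circles) and 5 AAI kidneys (filled circles) of each *Trp53* genotype, with the group mean as a bar. For *Plk2* and *Btg2* the open and filled circles are apart in all 3 genotypes, whereas those of *Gadd45g* and *Sesn2* overlap throughout.

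*Plk2*, the Polo-like kinase of centriole duplication, had the largest response of the group. In *Trp53(+/+)* kidneys its log2 signal was 5.71, 5.01, 4.60, 4.76 and 5.21 with water and 9.73, 8.38, 8.21, 7.35 and 7.99 with AAI. In *Trp53(+/-)* kidneys it was 6.18, 5.94, 6.23, 6.73 and 6.67 with water and 8.16, 8.55, 8.72, 8.50 and 8.50 with AAI. In *Trp53(-/-)* kidneys it was 5.99, 5.53, 6.16, 6.14 and 6.00 with water and 8.23, 8.40, 8.78, 7.98 and 8.05 with AAI. The treated and untreated kidneys were thus separate in every genotype, and the lowest water signals were those of the *Trp53(+/+)* group. The rise was 3.27 (SE 0.26, adjusted p = 2.53e-11) or 9.68-fold in *Trp53(+/+)*, 2.14 (SE 0.26, adjusted p = 7.47e-06) or 4.40-fold in *Trp53(+/-)* and 2.32 (SE 0.26, adjusted p = 2.11e-08) or 5.00-fold in *Trp53(-/-)* mice. Among all 22139 clusters ordered from the largest rise down, *Plk2* ranked 17, 11 and 65. *Trp53(+/+)* AAI replicate 1, at 9.73, stood above the rest of its group, and without it the *Trp53(+/+)* rise was 2.93 or 7.62-fold.

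*Plk3*, a stress-activated relative, moved by less. Its log2 signal in *Trp53(+/+)* kidneys was 6.41, 5.93, 7.00, 6.74 and 6.37 with water and 7.74, 7.34, 7.22, 7.01 and 7.43 with AAI. The *Trp53(+/-)* group had 6.87, 6.51, 6.66, 6.26 and 5.69 with water and 7.31, 7.33, 7.32, 6.84 and 6.75 with AAI. The *Trp53(-/-)* group had 6.89, 7.30, 7.52, 7.29 and 6.81 with water and 7.47, 7.56, 7.45, 7.35 and 7.83 with AAI. The *Trp53(+/+)* groups were just separate, 7.00 against 7.01, and the others overlapped. The change was 0.86 (SE 0.19, adjusted p = 0.00089) in *Trp53(+/+)* and 0.71 (SE 0.19, adjusted p = 0.0175) in *Trp53(+/-)* kidneys. In *Trp53(-/-)* kidneys, where 3 of 5 water signals lay within the range of the *Trp53(+/+)* AAI signals, it was 0.37 and did not pass (95% interval -0.03 to 0.76, adjusted p = 0.174). The *Trp53(+/-)* call was lost without *Trp53(+/-)* AAI replicate 2 (0.66, adjusted p = 0.0577) and without *Trp53(+/-)* water replicate 5 (0.53, adjusted p = 0.0923).

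*Btg2*, an early antiproliferative gene, had the next largest response. In *Trp53(+/+)* kidneys its log2 signal was 6.23, 5.85, 6.17, 6.34 and 5.94 with water and 8.66, 7.40, 7.94, 8.14 and 8.46 with AAI. Kidneys of *Trp53(+/-)* mice gave 6.78, 6.79, 6.79, 6.25 and 6.67 with water and 7.68, 8.07, 7.93, 7.65 and 7.46 with AAI. Kidneys of *Trp53(-/-)* mice gave 6.64, 6.55, 6.76, 6.01 and 6.01 with water and 7.51, 7.81, 7.50, 8.27 and 7.72 with AAI. No AAI kidney of any genotype was as low as a water kidney. The rise was 2.02 (SE 0.19, adjusted p = 5.17e-10) or 4.04-fold in *Trp53(+/+)*, 1.10 (SE 0.19, adjusted p = 0.000238) or 2.14-fold in *Trp53(+/-)* and 1.37 (SE 0.19, adjusted p = 8.67e-07) or 2.58-fold in *Trp53(-/-)* mice, with ranks of 140, 117 and 361 among all clusters.

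*Btg1*, its close relative, rose by similar amounts with and without p53. Its log2 signal was 6.29, 6.83, 6.16, 6.65 and 6.56 with water and 7.66, 6.82, 7.28, 7.30 and 7.18 with AAI in *Trp53(+/+)* kidneys. It was 6.63, 6.81, 6.62, 6.71 and 6.70 with water and 7.17, 7.02, 7.27, 7.36 and 7.29 with AAI in *Trp53(+/-)* kidneys. It was 6.75, 6.68, 6.72, 7.30 and 6.82 with water and 7.48, 7.76, 7.65, 7.71 and 7.39 with AAI in *Trp53(-/-)* kidneys. The groups were separate in *Trp53(+/-)* and *Trp53(-/-)* kidneys, and in *Trp53(+/+)* kidneys a single AAI array fell within the water range. The rise was 0.75 in *Trp53(+/+)*, 0.52 in *Trp53(+/-)* and 0.74 in *Trp53(-/-)* mice (SE 0.13 each, adjusted p = 5.38e-05, 0.0112 and 5.69e-05), or 1.68-fold, 1.44-fold and 1.67-fold.

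The promoters of 4 members are shown because *Plk2* and *Btg2*, which rose most, share an element that few promoters hold. The sequences are the 250 bases before the RefSeq transcription start, GRCm38.p6, written 5′ to 3′ along the gene, with the matched element in capitals: the cyclic AMP response element (CRE) TGACGTCA in *Plk2* (chr13:110394794-110395043, plus strand) and *Btg2* (chr1:134079156-134079405, minus strand), the CRE half-site TGACGT in *Plk3* (chr4:117133964-117134213, minus strand), and a p53 half-site in *Gadd45a* (chr6:67037408-67037657, minus strand).
Plk2: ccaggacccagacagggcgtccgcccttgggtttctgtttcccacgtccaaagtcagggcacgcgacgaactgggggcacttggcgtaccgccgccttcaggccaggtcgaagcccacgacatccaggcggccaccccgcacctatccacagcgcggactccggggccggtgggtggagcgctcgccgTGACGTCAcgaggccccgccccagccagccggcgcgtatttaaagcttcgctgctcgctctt
Btg2: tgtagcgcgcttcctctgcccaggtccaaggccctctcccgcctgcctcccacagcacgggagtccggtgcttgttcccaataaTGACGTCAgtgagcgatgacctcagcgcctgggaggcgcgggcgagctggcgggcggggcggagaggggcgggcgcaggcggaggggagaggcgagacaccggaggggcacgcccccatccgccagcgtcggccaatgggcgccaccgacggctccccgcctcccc
Plk3: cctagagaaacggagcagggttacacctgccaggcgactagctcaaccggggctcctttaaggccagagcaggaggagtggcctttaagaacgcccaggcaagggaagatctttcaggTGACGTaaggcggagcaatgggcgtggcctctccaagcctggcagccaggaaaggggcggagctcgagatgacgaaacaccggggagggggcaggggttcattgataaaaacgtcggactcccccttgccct
Gadd45a: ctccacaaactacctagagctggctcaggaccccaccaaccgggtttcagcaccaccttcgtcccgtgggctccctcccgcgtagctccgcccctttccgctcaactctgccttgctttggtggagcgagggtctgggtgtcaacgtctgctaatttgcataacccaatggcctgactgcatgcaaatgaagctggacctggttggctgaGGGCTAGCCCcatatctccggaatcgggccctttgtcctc

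The CRE, bound by CREB and ATF factors, began at position -62 of *Plk2* and -166 of *Btg2*, counted from the start site. It was found in 1.5% of the 32851 mouse promoters searched over the same length, and in no other member. Its half-site TGACGT, which the full element contains once on each strand, was also found at -132 in *Plk3* and -188 in *Btg1*, and was present in 6.5% of all promoters. A p53 half-site lay at -40 in *Gadd45a* and at -173 of the second start of *Sesn1*, against 7.1% of all promoters. *Gadd45b*, *Gadd45g* and *Btg1* had the TATA box TATAAA (12.4% of all promoters), and the *Gadd45g* window also held a C/EBP-ATF element core TGATGNAA (3.5%). The AP-1 site TGANTCA (6.7%) and the CArG box of serum response factor (1.5%) were in no member's window, and that of *Sesn2* matched none of the 7 motifs. Both strands were searched. The windows of *Plk2* and *Btg2* held 68.4% and 73.2% G and C, against a median of 52.4% over all promoters. The shares of all promoters were not matched for this content. The motifs were chosen with the expression changes known, and a match describes letters in this window, not binding.

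*Gadd45a*, the classic p53-inducible member of its family, rose as much without p53 as with it. In *Trp53(+/+)* kidneys its log2 signal was 7.15, 7.26, 7.20, 7.62 and 7.35 with water and 7.90, 7.75, 7.76, 7.97 and 7.95 with AAI. The values of *Trp53(+/-)* kidneys were 7.55, 7.40, 7.23, 7.05 and 7.64 with water and 7.47, 7.87, 7.56, 7.48 and 7.81 with AAI. The values of *Trp53(-/-)* kidneys were 7.75, 7.57, 7.60, 7.41 and 7.28 with water and 7.95, 8.09, 8.07, 8.33 and 8.01 with AAI. The groups did not overlap in *Trp53(+/+)* and *Trp53(-/-)* kidneys and overlapped in *Trp53(+/-)* kidneys. The rise was 0.55 in *Trp53(+/+)* and 0.57 in *Trp53(-/-)* kidneys (SE 0.12 each, adjusted p = 0.000521 and 0.000347), or 1.46-fold and 1.48-fold. In *Trp53(+/-)* kidneys the change was 0.26 and did not pass (95% interval 0.02 to 0.50, adjusted p = 0.25).

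*Gadd45b*, induced by NF-kB and TGF-beta signalling in other settings, had the same pattern. Its log2 signal was 5.32, 5.90, 6.19, 5.08 and 5.54 with water and 6.51, 6.08, 5.99, 6.08 and 6.51 with AAI in *Trp53(+/+)* kidneys. It was 6.26, 5.81, 6.08, 5.54 and 5.88 with water and 6.39, 6.24, 6.74, 6.28 and 6.37 with AAI in *Trp53(+/-)* kidneys. It was 6.09, 5.79, 5.61, 5.71 and 6.17 with water and 6.61, 6.54, 6.74, 6.53 and 6.88 with AAI in *Trp53(-/-)* kidneys. Only the *Trp53(-/-)* groups were separate. The rise was 0.63 in *Trp53(+/+)* and 0.79 in *Trp53(-/-)* kidneys (SE 0.17 each, adjusted p = 0.00415 and 0.000413). In *Trp53(+/-)* kidneys the change was 0.49 (adjusted p = 0.0706), which did not pass. It passed with the replicate number as a block (adjusted p = 0.0485), with array weights (0.51, adjusted p = 0.0257) and over the arrays of the compared groups only (adjusted p = 0.041). It also passed without *Trp53(+/+)* water array 3 or 4 (adjusted p = 0.0416 and 0.0479) or *Trp53(+/-)* water array 1 (0.58, adjusted p = 0.0366). With a batch term it passed under 0 of 5 assignments.

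*Gadd45g*, the third member of the family, did not pass in any genotype. Its log2 signal ranged from 5.42 to 6.07 with water and from 5.44 to 6.01 with AAI in *Trp53(+/+)* kidneys, from 5.10 to 5.43 and from 5.22 to 5.53 in *Trp53(+/-)* kidneys, and from 5.14 to 6.17 and from 5.42 to 6.02 in *Trp53(-/-)* kidneys. The changes were 0.02 (95% interval -0.29 to 0.32), 0.07 (-0.24 to 0.37) and 0.01 (-0.30 to 0.31), so a rise of the size of *Plk3* in *Trp53(+/+)* kidneys lies outside all 3 intervals.

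*Sesn1* and *Sesn2*, both stress-inducible inhibitors of mTORC1, differed. The log2 signal of *Sesn1* in *Trp53(+/+)* kidneys was 7.62, 7.34, 7.63, 7.48 and 7.29 with water and 7.85, 7.70, 7.87, 8.61 and 8.16 with AAI. For *Trp53(+/-)* mice it was 7.88, 7.84, 7.79, 7.62 and 7.51 with water and 8.02, 7.73, 7.56, 7.83 and 7.88 with AAI. For *Trp53(-/-)* mice it was 7.70, 7.63, 7.55, 7.78 and 7.81 with water and 7.89, 7.94, 8.37, 9.25 and 8.13 with AAI. The groups were separate in *Trp53(+/+)* and *Trp53(-/-)* kidneys, in each of which AAI replicate 4 was the highest. The rise was 0.57 in *Trp53(+/+)* and 0.62 in *Trp53(-/-)* kidneys (SE 0.18 each, adjusted p = 0.015 and 0.0077), and in *Trp53(+/-)* kidneys the change was 0.08 (95% interval -0.29 to 0.44, adjusted p = 0.986). Without *Trp53(+/+)* AAI replicate 4 the *Trp53(+/+)* change was 0.42 and no longer passed (adjusted p = 0.0721), and without *Trp53(-/-)* AAI replicate 4 the *Trp53(-/-)* rise was 0.39 (adjusted p = 0.0437). *Sesn2*, an ATF4 and p53 target that binds leucine, was the dimmest member, its mean signal at percentile 28.9 of all clusters. Its signal ranged from 4.49 to 5.11 with water and from 4.51 to 5.21 with AAI in *Trp53(+/+)* kidneys, with overlap in the other genotypes too, and the changes were -0.16, -0.06 and -0.12 (adjusted p = 0.497, 0.993 and 0.657). Whether a signal this low can follow a change was not tested.

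**Figure D2:**
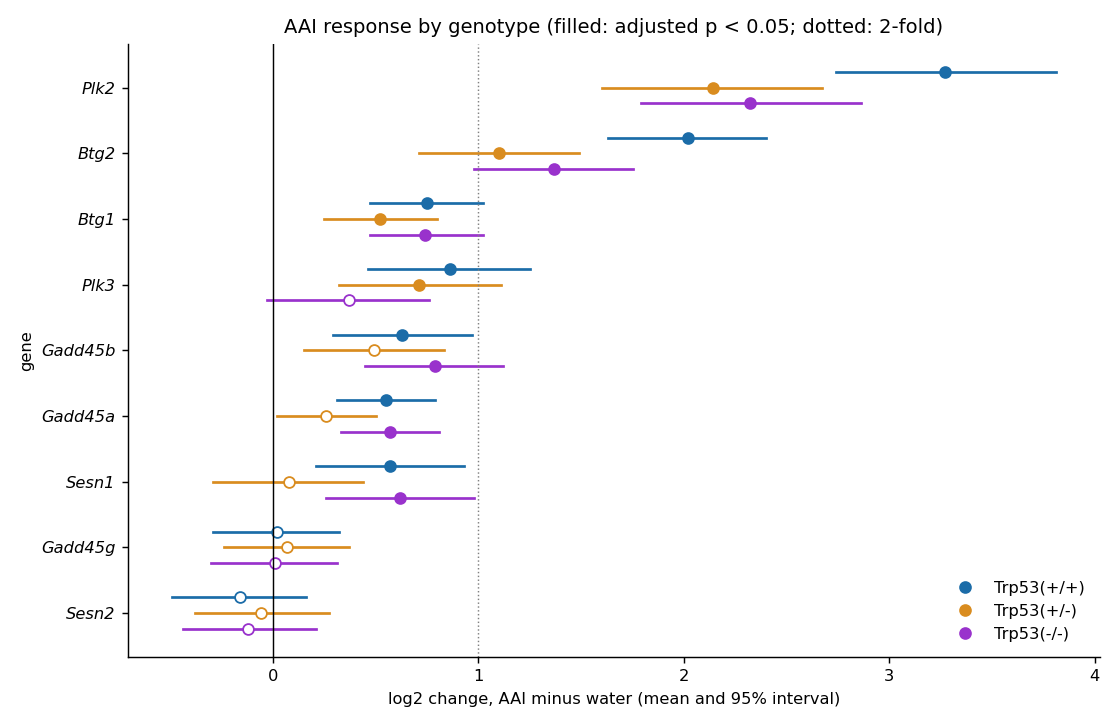
The log2 change of each gene, AAI minus water (x axis), in *Trp53(+/+)*, *Trp53(+/-)* and *Trp53(-/-)* kidneys, with 95% intervals from limma and 5 kidneys a group; filled circles passed an adjusted p of 0.05 and the dotted line marks a 2-fold rise. *Plk2* (3.27, 2.14 and 2.32) and *Btg2* (2.02, 1.10 and 1.37) lie beyond the dotted line in each genotype, and the other members lie below it.

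Whether the AAI response differed with genotype was tested as a difference between the changes. Between *Trp53(+/+)* and *Trp53(-/-)* kidneys 0 of the 9 members differed at an adjusted p under 0.05 in limma (2 at an unadjusted p under 0.05), against 0.104% of all clusters. The log2 rise of *Plk2* was 0.95 larger with p53 than without (95% interval 0.19 to 1.71, adjusted p = 0.528), and that of *Btg2* 0.65 larger (0.10 to 1.19, adjusted p = 0.554). For *Plk3* the difference was 0.49 (-0.07 to 1.05, adjusted p = 0.706). The differences of *Gadd45a*, *Gadd45b*, *Btg1* and *Sesn1* were -0.02, -0.16, 0 and -0.05, with intervals whose bounds ran from -0.64 to 0.46. For each of these 4 genes the upper bound was below its whole rise with p53, which was 0.55 to 0.75. The intervals of *Plk2* and *Btg2* leave room for a response that is up to 1.71 and 1.19 larger with p53, though part of the rise remained in *Trp53(-/-)* kidneys in either case.

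For *Mdm2* and *Ccng1*, p53 targets on the same arrays that are not members, the difference passed the threshold. The p53 ligase gene *Mdm2* rose by 1.80 with both copies of *Trp53* and by 1.13 with 1 copy, and its change without p53 was 0.20 (adjusted p = 0.435), and the difference of 1.60 between *Trp53(+/+)* and *Trp53(-/-)* passed (adjusted p = 0.000593). *Ccng1*, which encodes cyclin G1, changed by 1.63, 1.17 and -0.37, a difference of 2.00 (adjusted p = 8.24e-05). *Cdkn1a*, the gene of p21, was like *Plk2*: it changed by 4.40, 3.07 and 3.27, and the difference of 1.13 did not pass (adjusted p = 0.57). Of 33 measured p53 targets that are not members, these 3 genes included, 24 rose and 1 fell in *Trp53(+/+)* kidneys, 20 were up and 0 down in *Trp53(+/-)* kidneys, and 5 were up and 0 down in *Trp53(-/-)* kidneys, with median log2 changes of 0.89, 0.52 and 0.11. Among all clusters 15.2%, 3.53% and 15.5% rose and 12.0%, 3.81% and 10.9% fell in the same order. The count of rising targets without p53 was thus near the share of all clusters. For 9 of the 33, *Mdm2* and *Ccng1* among them, the response was larger with p53 than without at an adjusted p under 0.05, while 0.104% of all clusters differed in either direction. The other 7 included *Eda2r*, a TNF receptor family gene (2.52, 1.74 and 0.15, adjusted p of the difference = 8.78e-05), and *Trp53inp1*, a p53 cofactor gene (2.24, 1.08 and -0.19, adjusted p = 0.00117). *Ckap2*, a spindle gene on that list, rose in all 3 genotypes, by 2.48, 1.47 and 1.54.

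**Figure D3:**
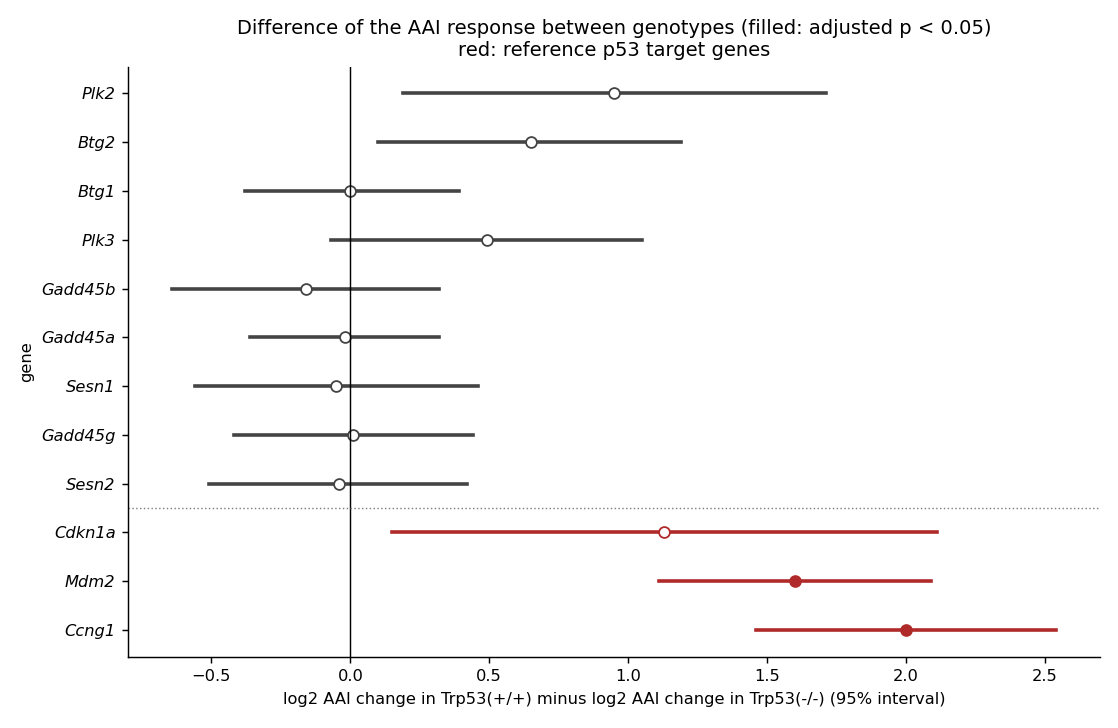
The AAI response in *Trp53(+/+)* kidneys minus that in *Trp53(-/-)* kidneys (log2, x axis, 95% intervals from limma) for the 9 measured members in grey and 3 reference p53 target genes in red; filled circles passed an adjusted p of 0.05. *Mdm2* (1.60) and *Ccng1* (2.00) passed, whereas every member and *Cdkn1a* did not.

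Against *Trp53(+/-)* kidneys, too, 0 members differed: 0 between *Trp53(+/+)* and *Trp53(+/-)* (2 at an unadjusted p under 0.05; 1.84% of all clusters passed) and 0 between *Trp53(+/-)* and *Trp53(-/-)* (1 at an unadjusted p under 0.05; 2.58% of all clusters passed). The nearest was *Btg2*, whose rise was 0.92 larger in *Trp53(+/+)* than in *Trp53(+/-)* kidneys (95% interval 0.37 to 1.46, adjusted p = 0.0732), followed by *Plk2* with 1.14 (0.38 to 1.90, adjusted p = 0.136). Each of these passed in 1 of the 30 fits that left out 1 array. Without *Trp53(+/+)* AAI replicate 2 the difference of *Btg2* was 1.10 (adjusted p = 0.00921), and without *Trp53(+/+)* AAI replicate 4 that of *Plk2* was 1.38 (adjusted p = 0.0301). Within *Trp53(+/-)* kidneys AAI and batch are the same split, so genotype and batch cannot be told apart in these differences. With a batch term under 5 assignments, the difference ran from 0.10 to 2.00 for *Btg2* and from -0.95 to 2.61 for *Plk2*.

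The levels themselves were then compared between genotypes. In AAI kidneys 0 members differed between *Trp53(+/+)* and *Trp53(-/-)* or between *Trp53(+/+)* and *Trp53(+/-)* (3.10% and 1.54% of all clusters did; 2 and 1 members at an unadjusted p under 0.05). *Plk2* in particular had similar signals, 0.05 higher in *Trp53(+/+)* than in *Trp53(-/-)* AAI kidneys (95% interval -0.49 to 0.58). All but 1 of the *Trp53(+/+)* AAI kidneys were in the other batch from the *Trp53(-/-)* ones. A batch offset could thus hide or mimic a genotype difference between these groups. Between *Trp53(+/-)* and *Trp53(-/-)* AAI kidneys 1 member differed, against 10.4% of all clusters: *Gadd45a* was lower in *Trp53(+/-)* kidneys (difference -0.45, SE 0.12, adjusted p = 0.00999), and these groups were also in different batches, so genotype and batch cannot be told apart. In water kidneys 1 member differed between *Trp53(+/+)* and *Trp53(+/-)* (0.235% of all clusters): *Plk2* was lower in *Trp53(+/+)* kidneys (difference -1.29, SE 0.26, adjusted p = 0.0325), again across the batches. Against *Trp53(-/-)* water kidneys, also in the other batch, the log2 differences were -0.91 for *Plk2* (adjusted p = 0.0977) and -0.67 for *Plk3* (adjusted p = 0.0957). There 0 members passed (3 at an unadjusted p under 0.05), against 0.641% of all clusters. Between *Trp53(+/-)* and *Trp53(-/-)* water kidneys, which shared a batch, 0 members differed (2 at an unadjusted p under 0.05), as did 0% of all clusters. The 2 were *Plk3* and *Gadd45g*, with log2 differences of -0.77 and -0.42, lower in *Trp53(+/-)* kidneys (adjusted p = 0.997 each).

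The size of the *Trp53(+/-)* response differed with the control used. Set against the *Trp53(+/+)* water kidneys of its own batch, the *Trp53(+/-)* AAI group was 3.43 higher for *Plk2*, 1.65 for *Btg2*, 0.72 for *Btg1* and 0.62 for *Plk3* (adjusted p = 2.56e-10, 9.73e-08, 0.000148 and 0.0196), a contrast in which genotype changes together with AAI. *Gadd45b*, at 0.80, also passed there (adjusted p = 0.000557), and *Gadd45a* and *Sesn1*, at 0.32 and 0.33, did not (0.0506 and 0.193). With a batch term, which rests on the single *Trp53(+/+)* AAI kidney of batch 2, the *Trp53(+/-)* change of *Plk2* was a median of 1.99 over the 5 possible assignments (0.91 to 3.88) and passed in 1 of them. That of *Btg2* was 1.12 (0.20 to 1.78, passing in 1), that of *Btg1* 0.56 (-0.01 to 1.04, passing in 1) and that of *Plk3* 0.70 (0.29 to 1.20, passing in 0). In *Trp53(+/+)* kidneys the same term gave 2.93 to 3.52 for *Plk2* and 1.88 to 2.20 for *Btg2*, passing in 5 of 5 assignments.

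**Figure D4:**
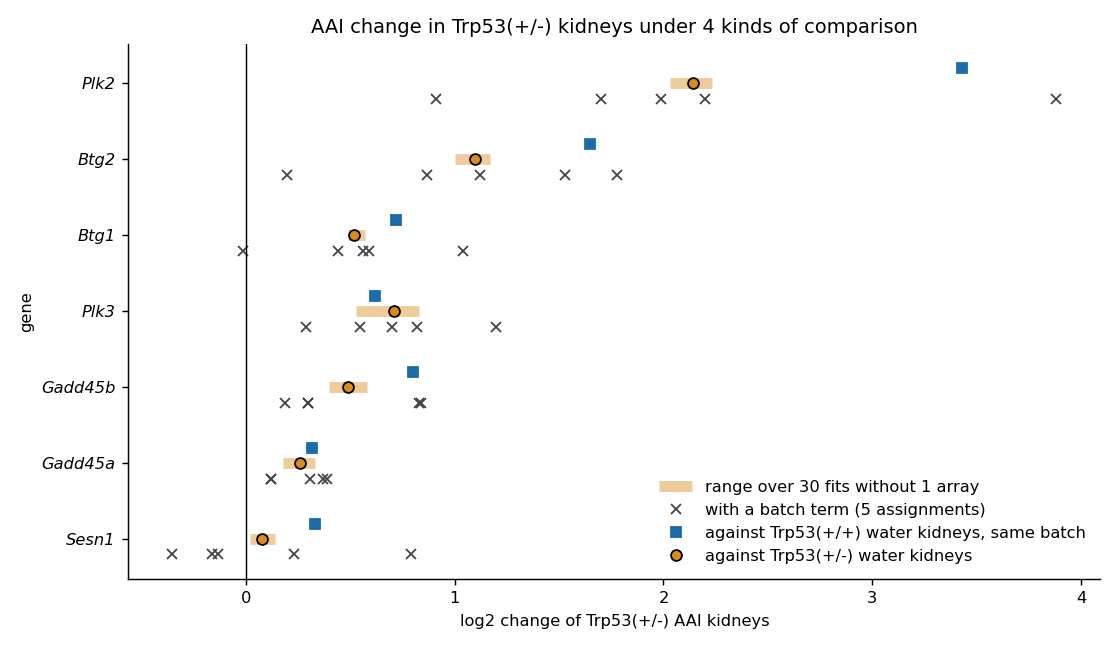
The log2 change of *Trp53(+/-)* AAI kidneys (x axis) for 7 members: against *Trp53(+/-)* water kidneys (circles, with the range over 30 fits that each leave out 1 array as a band), with a batch term under 5 assignments (crosses), and against the *Trp53(+/+)* water kidneys of the same batch (squares). For *Plk2* the circle lies at 2.14, the square at 3.43 and the crosses between 0.91 and 3.88.

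The relatives and partners of these proteins were counted by the same rule. With both, 1 and 0 copies of *Trp53*, 15.2%, 3.53% and 15.5% of all clusters rose and 12.0%, 3.81% and 10.9% fell. Of 7 genes of the same families that are not members, 3 rose in *Trp53(+/+)*, 2 in *Trp53(+/-)* and 3 in *Trp53(-/-)* mice and 0 fell. *Plk1* and *Plk4*, kinases of mitosis and of centriole assembly, rose by 1.16, 0.73 and 1.79, and by 0.75, 0.63 and 1.81 (largest adjusted p = 0.0494 and 0.03), and *Sesn3*, a sestrin under FOXO control, rose by 0.42 and 0.32 in *Trp53(+/+)* and *Trp53(-/-)* kidneys. Of 12 measured GADD45 partners, 4 rose and 3 fell in *Trp53(+/+)*, 3 and 1 in *Trp53(+/-)* and 4 and 3 in *Trp53(-/-)* mice. Among them *Cdk1* rose by 1.47, 0.85 and 2.35 and *Pcna*, the replication clamp, by 1.03, 0.55 and 1.37, whereas *Map2k6*, an activator of p38, fell by 1.84, 0.95 and 1.75. Of 14 measured BTG partners, most of them CCR4-NOT and PAN deadenylase genes, 3, 1 and 4 rose and 0 fell. *Prmt1*, an arginine methyltransferase that BTG1 binds, rose by 0.70, 0.48 and 0.60. It was the riser in *Trp53(+/-)* kidneys, and those in *Trp53(+/+)* kidneys were *Prmt1*, *Pabpc1* and the CCR4-NOT gene *Cnot6*. Of 28 genes of the sestrin pathway (GATOR, AMPK and mTORC1), 4 rose and 4 fell in *Trp53(+/+)*, 0 and 2 in *Trp53(+/-)* and 5 and 5 in *Trp53(-/-)* mice. In *Trp53(+/+)* mice both counts were near the shares of all clusters, so they set this list apart in neither direction. *Mtor*, the kinase itself, fell by 0.63, 0.62 and 1.04, and *Prkaa2*, an AMPK catalytic subunit, fell by 0.85, 0.57 and 1.11. Other AMPK subunit genes went the other way in *Trp53(+/+)* and *Trp53(-/-)* kidneys: *Prkaa1* rose by 0.60 and 0.66, and *Prkab2* by 0.56 and 1.01.

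Lists of genes that share other inducers with the members were counted beside the same shares of all clusters. Of 23 immediate early genes, which answer growth factor and stress signals, 17 rose in *Trp53(+/+)*, 10 in *Trp53(+/-)* and 14 in *Trp53(-/-)* mice, with 0 falling and median log2 changes of 0.72, 0.28 and 0.58. *Egr1* rose by 2.62, 1.92 and 2.86, *Klf6* by 2.18, 1.08 and 2.00 and *Jun* by 1.59, 0.82 and 1.42, and 0 of the 23 differed between *Trp53(+/+)* and *Trp53(-/-)*. Of 21 genes of the integrated stress response, 8 rose and 2 fell in *Trp53(+/+)*, 6 and 2 in *Trp53(+/-)* and 11 and 3 in *Trp53(-/-)* mice. *Atf3*, a CRE-binding factor on this list, rose by 1.35, 0.73 and 1.88, and *Shmt2*, a mitochondrial enzyme of one-carbon metabolism, fell by 1.88, 0.93 and 1.46. Although several members are antiproliferative, 13, 8 and 15 of 16 mitosis genes rose, *Mki67* by 2.43, 1.42 and 3.03.

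Markers of cell types moved with the same treatment. All 9 measured injured tubule markers rose in each genotype. The mean log2 signal of that list lay between 5.62 and 7.17 over the 15 water kidneys and between 8.42 and 9.89 over the 15 AAI kidneys. Proximal tubule markers, whose mean signal of 9.53 to 10.12 in water kidneys fitted the labelled tissue, fell in 10, 8 and 10 of 10 cases, to 7.22 to 8.57 in *Trp53(+/+)*, 8.26 to 9.07 in *Trp53(+/-)* and 6.84 to 7.44 in *Trp53(-/-)* mice. Fibroblast markers rose in 9, 7 and 9 of 9, macrophage markers in 9, 4 and 8 of 11 and endothelial markers in 7, 0 and 7 of 7. Podocyte markers rose in 4, 0 and 2 of 4 and distal nephron markers in 1, 0 and 2 of 5, with 0 falling. The shares of all clusters beside these counts were 15.2%, 3.53% and 15.5% up and 12.0%, 3.81% and 10.9% down. Of 10 T and NK cell and 3 B cell markers 0 changed in any genotype, and 3 of 7 neutrophil markers passed, all without p53, with 2 up and 1 down. Like *Plk2*, the injured tubule list had its lowest water signals in *Trp53(+/+)* kidneys (median 5.63, against 6.83 and 6.64), and its highest signal was that of a *Trp53(+/+)* AAI kidney. The fibroblast, macrophage, immediate early and mitosis lists also had their lowest water medians there (6.52, 5.40, 5.97 and 5.16), whereas the proximal tubule list had its highest. *Trp53(+/+)* was the only water group of batch 1, so genotype and batch cannot be told apart in these levels. With group means removed, *Plk2* followed the injured tubule list over the 30 arrays (r = 0.79) and the list of mitosis and proliferation genes (r = 0.57). Without *Trp53(+/+)* AAI array 1 the first value was 0.60, and the second was not computed again. The other 8 members had r between -0.28 and 0.29 with the injured tubule list, and *Gadd45b* went from -0.28 to -0.60 without that array. These values are a description over arrays that share their normalisation, and the part of cell composition in the members' changes was not tested further.

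The genes most like each member over the 30 arrays are given as a description, without a p, since treatment moves them together and all share the arrays. The log2 signal of *Plk2* ran closest to *Siva1*, a proapoptotic p53 target (Pearson r = 0.97), *Mybl1* (0.96) and *Fat1* (0.96). That of *Btg2* ran closest to *Zfp52* (0.94), *Cdkn1a* (0.94) and *S100a11* (0.93). *Btg1* was closest to *Adgrg1* (0.92), *Gadd45a* to *Muc1*, *Rhoj* and *Mt2*, a metallothionein (0.88 each), *Gadd45b* to *Actn1* (0.83), *Plk3* to *Apold1* (0.80) and *Sesn1* to *Gem* and *Hipk1* (0.90 each). *Gadd45g* and *Sesn2*, which AAI did not move past the threshold, had no neighbour above 0.66 and 0.68. With group means removed, *Plk2* was closest to *Txnrd1*, the NRF2-induced thioredoxin reductase (0.88), and *Mdm2* (0.79), and *Sesn1* to *Gem* (0.82). These values were not computed again without *Trp53(+/+)* AAI array 1, which stood above its group for *Plk2*. *Plk2* and *Btg2* had r = 0.88 with each other in level and 0.02 once group means were removed. Within groups, then, their deviations showed no linear relation over the 30 arrays.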

How the data were processed

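Signals of 30 mouse kidney samples on the Clariom S array were deposited as RMA values on the log2 scale, computed by the authors in the Transcriptome Analysis Console, so background subtraction and normalisation preceded the values used here. The version and genome build are not given in the sources used here. Of 22206 clusters, 19572 had a symbol through the platform table. Where clusters shared a symbol the brightest was kept (67 left out), and 22139 were tested. limma 3.58.1 with statmod 1.5.0 in R 4.3.3 fitted 1 mean per group (5 arrays each, 24 residual degrees of freedom), with two-sided p-values adjusted by Benjamini-Hochberg over all clusters. The number of arrays limits the precision. No batch term was in this fit, whereas the study eliminated the batch effect in Qlucore.

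The members and the 18 gene lists (225 of 239 genes measured) were chosen with earlier results of these data known. Named genes are the members, up to 4 genes per list with the largest called change in *Trp53(+/+)* kidneys, each member's 3 closest genes, and *Lcn2*, *Cdkn1a*, *Mdm2* and *Ccng1* as references. Replicate numbers do not pair the arrays (median correlation -0.006 over 75 pairs). Promoters are RefSeq windows of 250 bases before the start, GRCm38.p6. The fit was tested on simulated data. Alternatives were other array sets, filters, scalings, priors, weights, a replicate block, 5 batch assignments, thresholds, a plain equal-variance test of 2 groups without batch removal, another control and each array left out.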

Additional observations from a re-analysis of the deposited data

Results flagged for a closer look

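Of the 54 sets of 5 arrays tested (9 genes in 6 groups), 4 held an array far from the others, and chance alone flags about 1 in 20. *Btg1* was at 7.30 in *Trp53(-/-)* water replicate 4 and at 6.68 to 6.82 in the rest of that group. *Btg2* was at 6.25 in *Trp53(+/-)* water replicate 4, against 6.67 to 6.79. *Plk2* was at 5.53 in *Trp53(-/-)* water replicate 2, against 5.99 to 6.16. *Sesn2* was at 5.21 in *Trp53(+/+)* AAI replicate 4, against 4.51 to 4.67. Without any one of these arrays the rises of *Btg1*, *Btg2* and *Plk2* passed the threshold in the same genotypes as before.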

How the results depend on the processing

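Of the changes of single genes, 1391 values under the alternatives kept their direction and side of the threshold, 30 changed sign, 24 no longer passed and 10 newly passed. With at least 2-fold required, at an adjusted or unadjusted p under 0.05, the members that rose were 2 in each genotype. The batch term left 0 rising members in *Trp53(+/-)* kidneys with array 2, 3, 4 or 5 of the *Trp53(+/+)* AAI group in batch 2. The members whose AAI effect differed between *Trp53(+/+)* and *Trp53(+/-)* became 1 with array 2 there and 1 at an unadjusted p with 2-fold, and ran from 0 to 1 when each array was left out.

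Between *Trp53(+/-)* and *Trp53(-/-)* AAI kidneys the differing members became 0 with array 3, 4 or 5 in batch 2 and 0 under both 2-fold rules. They were 2 with the arrays of the compared groups only or with dim clusters left out, and 1 to 2 without single arrays. Between *Trp53(+/+)* and *Trp53(-/-)* they ran from 0 to 1 in AAI kidneys without single arrays, and in water kidneys from 0 to 1, with 1 over the compared groups only. Between *Trp53(+/+)* and *Trp53(+/-)* water kidneys the call of *Plk2* was lost (0) with array 1, 2, 3 or 5 in batch 2 and ran from 0 to 1 without single arrays.

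The sign changes were all in values that passed neither way, apart from *Btg1* in *Trp53(+/-)* kidneys, which was -0.01 with array 2 in batch 2. *Gadd45g* was -0.03 after another quantile normalisation, -0.04 with arrays centred on their medians and -0.01 with array weights in *Trp53(+/+)* kidneys, and -0.03, -0.04 and -0.06 in *Trp53(-/-)* kidneys. With arrays 4 and 5 in batch 2 it was -0.05 and -0.03 in *Trp53(+/+)* kidneys, and with arrays 1, 2 and 3 it was -0.11, -0.28 and 0 in *Trp53(+/-)* kidneys, where it was -0.32 against *Trp53(+/+)* water kidneys. Without single arrays its range was -0.06 to 0.11 in *Trp53(+/+)* kidneys and -0.14 to 0.11 in *Trp53(-/-)* kidneys, and that of *Sesn2* was -0.14 to 0.01 in *Trp53(+/-)* kidneys and -0.22 to 0 in *Trp53(-/-)* kidneys. *Sesn1* in *Trp53(+/-)* kidneys was -0.16, -0.35 and -0.13 with arrays 1, 2 and 3 in batch 2, and *Sesn2* was 0.54 with array 4. The difference between *Trp53(+/+)* and *Trp53(+/-)* became -0.95 for *Plk2* and -0.44 for *Plk3* with array 1 there. The cause of these shifts was not tested.

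The replicate block changed 1 call, *Gadd45b* in *Trp53(+/-)* kidneys (0.49, adjusted p = 0.0485), and the numbers do not pair the arrays. A plain equal-variance test of 2 groups, with neither moderation nor batch removal and judged at an adjusted p of 0.05, which is not the filter of the study, lost *Gadd45b* in *Trp53(+/+)* (adjusted p = 0.0954), *Plk3* in *Trp53(+/-)* (0.148) and *Sesn1* in *Trp53(+/+)* and *Trp53(-/-)* kidneys (0.0564 and 0.134). The 5 arrays a group limit the precision. Within *Trp53(+/-)* kidneys AAI and batch are the same split: the batch term rests on 1 array of another genotype, and the *Trp53(+/+)* water control of the same batch changes genotype together with AAI. Leaving out each array for the correlation of the members with the injured tubule list was chosen after seeing the data.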
